A study of Mus musculus with 6 samples.

Results

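The numbered zinc finger genes of the mouse are those whose symbol is Zfp followed by digits alone, a naming series for zinc finger proteins in the order of their description. Of 337 such symbols in a table of 24411 genes, the 286 with at least 600 reads summed over all libraries were taken, and 51 with fewer reads were left out. Just inside this read minimum were Zfp92 (618 reads) and Zfp36 (625 reads), and just outside were Zfp493 (599 reads) and Zfp78 (596 reads). A group of 8 genes in a cluster on chromosome 17, Zfp40, Zfp160, Zfp760, Zfp942, Zfp944, Zfp945, Zfp946 and Zfp948, was picked out with its change between the genotypes already known. The members were thus chosen by their summed reads, and the group by its decrease in KO. Its values are therefore a description with no test, and counts are also given without it.

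Bulk RNA was sequenced from developing cerebellum of mice at postnatal day 18. There were 3 independent wild-type (WT) replicates and 3 independent replicates with a deletion of the remote enhancer of Atoh7 (KO), a stretch of DNA that regulates this proneural gene, known from the retina. The sources used here do not give the strain, the sex, the litter or whether a replicate was 1 animal or a pool, and the deletion was not described as limited to a cell type. The tissue entry of the labels reads retina where the design reads cerebellum.

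C2H2 zinc finger proteins bind DNA or RNA through tandem fingers, each held by a zinc ion between a pair of cysteines and a pair of histidines. The largest class carries a Kruppel-associated box (KRAB), which recruits the corepressor Trim28 and with it the histone methyltransferase Setdb1, heterochromatin proteins and the NuRD deacetylase complex. KRAB zinc finger genes lie in clusters that grew by duplication, and many of their proteins silence transposable elements. Members without KRAB include developmental regulators and RNA-binding proteins.

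Promoters of the chromosome 17 group are shown because a pair of the 8 genes, Zfp942 and Zfp944, shares most of its promoter and several promoters hold the same motifs. Each run is 80 bases before and 20 bases after the start in RefSeq on GRCm38.p6, read 5′ to 3′ on the gene's strand. Capitals mark CACGTG, the palindromic E-box, and CCGGAA, a core of sites bound by ETS factors. The reference table held an entry for 238 of the 286 members and for 7 of the 8 genes. Zfp40 is named only.
Zfp942 (chr17:21962445-21962544, minus strand): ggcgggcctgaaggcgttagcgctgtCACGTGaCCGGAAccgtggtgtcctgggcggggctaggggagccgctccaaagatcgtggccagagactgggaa
Zfp944 (chr17:22361381-22361480, minus strand): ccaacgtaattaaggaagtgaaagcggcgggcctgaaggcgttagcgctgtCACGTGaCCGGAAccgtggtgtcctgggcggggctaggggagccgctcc
Zfp946 (chr17:22424122-22424221, plus strand): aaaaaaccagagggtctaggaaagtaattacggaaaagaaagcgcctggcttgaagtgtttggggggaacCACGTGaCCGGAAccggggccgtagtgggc
Zfp945 (chr17:22867115-22867214, minus strand): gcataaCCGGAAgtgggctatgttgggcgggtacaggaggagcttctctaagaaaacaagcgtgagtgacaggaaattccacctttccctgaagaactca
Zfp760 (chr17:21707661-21707760, plus strand): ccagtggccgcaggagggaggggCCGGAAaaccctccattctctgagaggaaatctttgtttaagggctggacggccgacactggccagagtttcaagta
Zfp160 (chr17:21008861-21008960, plus strand): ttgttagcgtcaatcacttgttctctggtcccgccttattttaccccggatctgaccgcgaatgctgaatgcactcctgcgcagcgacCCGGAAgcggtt
Zfp948 (chr17:21566898-21566997, plus strand): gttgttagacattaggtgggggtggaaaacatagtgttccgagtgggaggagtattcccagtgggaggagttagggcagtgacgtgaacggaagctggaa

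Zfp942 and Zfp944 shared an unbroken run of 207 of the 300 bases from 250 before to 50 after the start, and every other pair of the 7 promoters at most 16 bases. Of all 27025 promoters in the table, 16.7% held CCGGAA on either strand in this 300-base window, against 39.5% of the members with a promoter (94 of 238). The share was 45.8% among members with KRAB (65 of 142) and 30.9% among those without (29 of 94). Among members lower in KO it was 46.2% (24 of 52). In the chromosome 17 group 6 of 7 promoters held it, and the window of Zfp948 held neither motif. CACGTG was in 8.09% of all promoters and 7.98% of members, and in 3 of 7 of the group.

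In Zfp942, Zfp944 and Zfp946 both motifs stood together, as CACGTGACCGGAA, a string searched for after these promoters had been seen. It occurred on either strand in 10 of 27025 promoters (0.0370%). The other holders were Zfp943 and Zfp758, which start 87 bases from Zfp942 and 52 bases from Zfp944 on the opposite strand, and 1700015C15Rik, Cdk20, Fdx2, Gtf2h1 and Hps5. The motif GGGCGG, a core of sites bound by Sp factors, was in 38.2% of all promoters. It was in 38.7% of members with KRAB and in 66.0% of members without. In the chromosome 17 group 6 of 7 promoters held it, the same 6 that held the core bound by ETS factors. TATAAA was in 15.7% of all promoters and 9.24% of members.

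Gene reads numbered 16340132 to 34438262 per library. WT replicate 3 stood apart, with 63.2% of its gene reads on the ribosomal RNA precursor Rn45s against 1.28% to 3.04% elsewhere, which left 6015125 reads on other genes and as few as 16 on a member. The share of all reads that were assigned to no gene feature was 34.3% ± 3.59 in WT and 17.3% ± 0.291 in KO (SD, n = 3 each, two-sided exact permutation p = 0.1, the smallest this design allows). Such reads include those in introns only or on the strand opposite a gene, beside reads outside genes, and these kinds were not separated. WT replicate 1 held 31134 reads of Xist and the other libraries at most 10. Of 12 cerebellar markers all were detected. The 10 retinal markers summed to 8.001 to 11.5 CPM (counts scaled to 1e+06 reads per library), with the photoreceptor factor Crx at 0 reads. Cerebellar markers summed to 2951 to 3673 CPM in WT and 2590 to 3412 in KO. In KO 1 of the 12 was higher and 1 lower, and their median log2 fold change (KO minus WT) was −0.24. Of 8 markers each, 7 of blood vessels and 6 of meningeal fibroblasts were lower in KO. Vessel markers summed to 223 to 246 CPM in WT and 162 to 165 in KO, and meningeal markers to 284 to 424 and 202 to 215, with no marker of either list at 0. Choroid plexus markers (0 of 6 changed) summed to 2004 to 2301 CPM in WT and 1837 to 2243 in KO. The part of these differences in the results that follow was not tested. In bulk RNA, fewer cells of a type and less RNA per cell cannot be told apart.

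Changes among the numbered Zfp genes were mostly decreases in KO. Of the 286, 60 were lower and 5 higher by edgeR's quasi-likelihood test at a Benjamini-Hochberg adjusted p under 0.05, adjusted over 15519 tested genes, and 221 did not pass. All 286 had passed the filter on low counts. Over all tested genes 16.7% were called, 10.2% lower and 6.43% higher, so the members' 21.0% lower lay above the background and their 5 higher below it. Without the chromosome 17 group, 52 of 278 were lower and 5 higher. The count of lower members was 33, 34, 31 and 30 when WT replicate 2 or KO replicate 1, 2 or 3 was left out, where 5.87%, 5.95%, 5.33% and 5.08% of all tested genes were lower. Leaving out WT replicate 3 gave 75 lower and 9 higher, against 13.2% and 10.2% of all tested genes, and leaving out WT replicate 1 gave 54 lower, against 8.86%.

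Most of the changes were small. The median log2 fold change (KO minus WT) of the members was −0.12, against −0.01 over all tested genes, and the middle of the distribution ran from −0.28 to 0.03, against −0.21 to 0.15. The estimate was negative for 200 of 286 members (69.9%), against 50.8% of all tested genes. Of the 60 lower members 15 fell at least 1.5-fold and 3 of these at least 2-fold, and none of the 5 higher members rose 1.5-fold. These are 5.24% and 1.05% of the members, against 4.38% and 1.75% of all tested genes, so the share of large decreases was near or below the background. Of all tested genes 0.367% were higher by 1.5-fold or more. In 115 members every KO library lay below every WT library and in 17 every KO library lay above, where 20.5% and 18.9% of all tested genes did so.

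**Figure D1:**
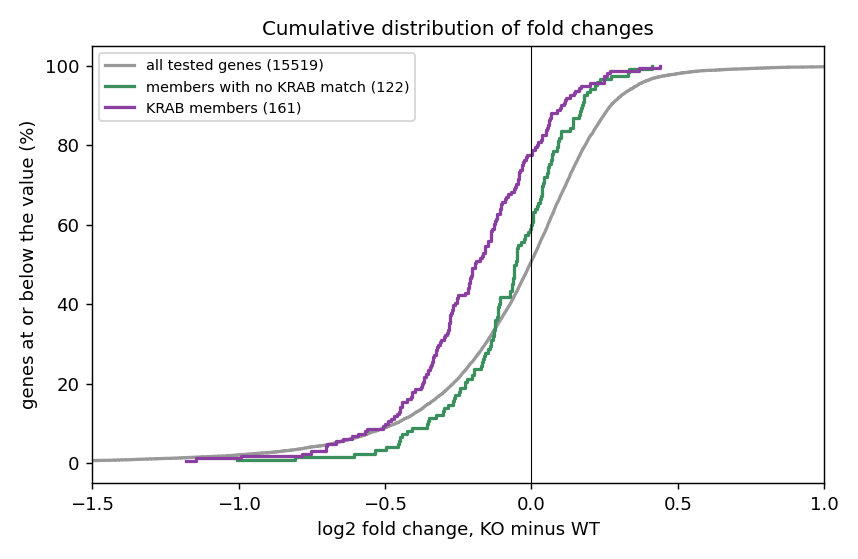
Cumulative distribution of log2 fold changes (KO minus WT, x axis) as the percent of genes at or below each value (y axis), for 161 members with KRAB, 122 members with no KRAB match and all 15519 tested genes. The KRAB curve lies left of the others around its median of −0.19, and the curve without KRAB has its median at −0.06.

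Members with KRAB held most of the decreases. A KRAB domain was found in the annotated proteins of 161 of 283 members with a protein, and no match in 122. Of the 161, 42 were lower in KO (26.1%), 1 was higher and 118 did not pass. Their median log2 fold change was −0.19. Of the 122, 17 were lower (13.9%) and 4 higher, with a median of −0.06. Without the chromosome 17 group, 34 of 153 KRAB members were lower and the median was −0.16. Over all libraries the median level of a gene was 12.4 CPM with KRAB and 21.2 CPM without, so the classes also differed in abundance, and the difference between them was not tested.

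Summed over the KRAB members, WT replicates 1 to 3 measured 2851, 2941 and 2950 CPM and KO replicates 1 to 3 measured 2527, 2490 and 2545 CPM. The members with no KRAB match summed to 4369, 4473 and 4482 CPM in WT and to 4288, 4176 and 4249 CPM in KO. In both classes the WT libraries were all above the KO libraries, and the gap was wider for the KRAB members. The count of lower KRAB members, of 161, was 21, 23, 22 and 21 without WT replicate 2 or KO replicate 1, 2 or 3, 37 without WT replicate 1 and 50 without WT replicate 3. For the 122 members with no KRAB match it was 12, 11, 9, 9, 16 and 24 in the same order. Of all tested genes 5.87%, 5.95%, 5.33%, 5.08%, 8.86% and 13.2% were lower in these fits. Without WT replicate 2 the classes thus lay closer together than in the main fit.

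Members were also grouped by their number of fingers. The longest annotated protein held a median of 11 finger motifs, 12 in KRAB members and 7.5 in the others, and at most 36, in Zfp142. Lower in KO were 13 of 36 members with 17 or more fingers and 14 of 57 with 13 to 16, against 15 of 92 with 9 to 12, 12 of 53 with 5 to 8 and 5 of 37 with 1 to 4. These shares were 36.1%, 24.6%, 16.3%, 22.6% and 13.5% in the same order. Of all members 21.0% were lower, and of all tested genes 10.2%. Across KRAB members the log2 fold change and the finger number gave Pearson's r = −0.21 and Spearman's rho = −0.26 (n = 161), and across the others 0.03 and 0.01 (n = 122). These describe genes of the same 6 libraries, which are not independent points. No finger motif was found in 8 members, among them Zfp36 (tristetraprolin), whose fingers are of the CCCH type and which promotes decay of messenger RNAs, and none of the 8 was lower.

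Related families named otherwise gave these values. Zfp symbols with a letter after the number were lower in 4 of 23 and higher in 1, with a median log2 fold change of −0.10. Zkscan and Zscan genes, which pair fingers with a SCAN domain, were lower in 3 of 20 with a median of −0.15. Zbtb genes, which pair them with a BTB domain, were lower in 3 of 39 and higher in 3, with a median of −0.03. The shares lower were thus 17.4%, 15.0% and 7.69% in these small families. Over all tested genes 10.2% were lower and 6.43% higher. Differences between the families were not tested.

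In the chromosome 17 group, every one of the 8 genes was lower in KO, with no overlap between the genotypes. All 8 encode KRAB proteins, with 11 to 18 fingers. Summed over the group, WT replicates 1 to 3 measured 158, 170 and 184 CPM and KO replicates 1 to 3 measured 114, 111 and 122 CPM, or 170.6 ± 13.1 and 115.8 ± 5.46 CPM (SD, n = 3 each). The highest KO library stayed below the lowest WT library.

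Zfp40 had the lowest estimate of the 8, at a log2 fold change of −0.75 (SE 0.09). It measured 24.3, 26.2 and 29.3 CPM in WT and 14.7, 15.0 and 17.04 CPM in KO. Zfp948 measured 12.5, 12.3 and 15.0 CPM in WT and 8.09, 7.60 and 8.36 CPM in KO, or −0.70 (SE 0.10). Both were highest in WT replicate 3, and in Zfp948, the least abundant of the group in CPM, the KO values lay close together. Zfp160 gave 20.9, 24.5 and 27.3 CPM in WT and 15.5, 13.9 and 15.5 CPM in KO (−0.67, SE 0.10). For Zfp760 the values were 21.4, 24.3 and 22.9 CPM in WT and 15.4, 14.2 and 15.9 CPM in KO (−0.59, SE 0.09). Each of these WT sets lay wholly above its KO set.

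The remaining 4 share start or transcript sequence with each other. Zfp944 measured 16.4, 16.1 and 19.2 CPM in WT and 10.9, 10.8 and 12.6 CPM in KO (−0.56, SE 0.10). Zfp942 measured 19.98, 22.9 and 22.3 CPM in WT and 16.6, 17.7 and 18.6 CPM in KO (−0.30, SE 0.09), the smallest decrease of the group. These are the copies with the 207-base shared promoter run, and of their transcripts 10.4% and 8.99% of 50-base words also occur in other genes, mostly in each other, so reads there may not be assigned to a single gene. Zfp945 gave 23.3, 24.4 and 27.7 CPM in WT and 17.3, 17.3 and 18.4 CPM in KO (−0.49, SE 0.08). Zfp946 gave 18.9, 19.0 and 20.3 CPM in WT and 15.4, 14.9 and 15.5 CPM in KO (−0.34, SE 0.08). In all 4 the WT libraries were above the KO libraries, by the narrowest margin in Zfp942. Without WT replicate 3 the estimates of the 8 ran from −0.69 in Zfp40 to −0.28 in Zfp942. Their sign could hardly change, since the genotypes did not overlap in any of the 8.

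**Figure D2:**
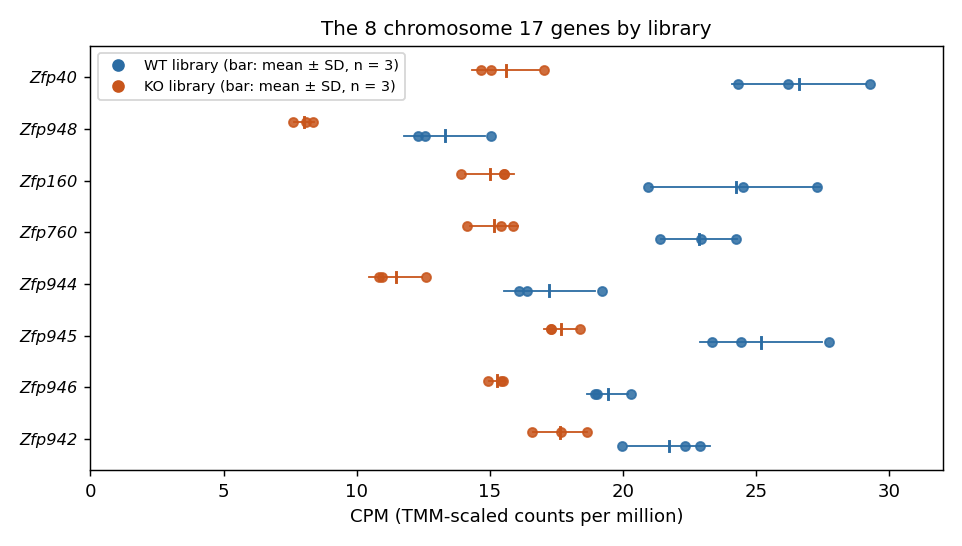
Level of the 8 chromosome 17 genes in CPM (x axis, TMM-scaled) in each WT and KO library (points), with bars for the mean ± SD of 3 libraries. In every gene the KO points lie left of the WT points, with the widest gap in Zfp40 and the narrowest in Zfp942.

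The 8 genes span 2.18 Mb of chromosome 17 (chr17:21008903-23193252, GRCm38), with 10 other numbered Zfp genes between them. None of these 10 passed the test, although 9 of 10 had a negative estimate. Since the 8 were picked by their decrease in KO, this split follows from the choice and is not a separate result. Their log2 fold changes had a median of −0.34 and a range from −0.46 to 0.05. The 10 were less abundant, with a median level of 5.60 CPM against 19.3 CPM for the 8 genes. Of the 18 numbered Zfp genes in the window, 15 met the read minimum. A difference between the 10 and the 8, and the part of abundance in it, was not tested. Zfp943, which shares its start region with Zfp942, measured 22.7, 24.5 and 32.7 CPM in WT and 20.1, 19.3 and 20.6 CPM in KO (−0.37, SE 0.12, adjusted p = 0.0577). It passed without WT replicate 1 (−0.47, adjusted p = 0.0254) and without WT replicate 3 (−0.23, adjusted p = 0.0368). Zfp758, the partner of Zfp944, measured 14.7 ± 1.87 CPM in WT and 11.9 ± 1.07 in KO (−0.27, adjusted p = 0.124). Zfp51 (−0.46, adjusted p = 0.0994) and Zfp53 (−0.34, adjusted p = 0.115) lay in the same range, and Zfp677, at 3.49 ± 0.349 CPM in WT and 3.71 ± 0.327 in KO, had the positive estimate of 0.05.

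Only 3 other tested genes lay in the window. The long noncoding RNA genes Gm16386 (9.53 ± 1.95 CPM in WT and 3.93 ± 0.687 in KO, log2 fold change −1.22, adjusted p = 0.00135) and 9330136K24Rik (1.27 ± 0.253 and 0.625 ± 0.176 CPM, −0.93, adjusted p = 0.0477) were lower. The pseudogene Gm10509 did not pass (−0.27, adjusted p = 0.275).

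**Figure D3:**
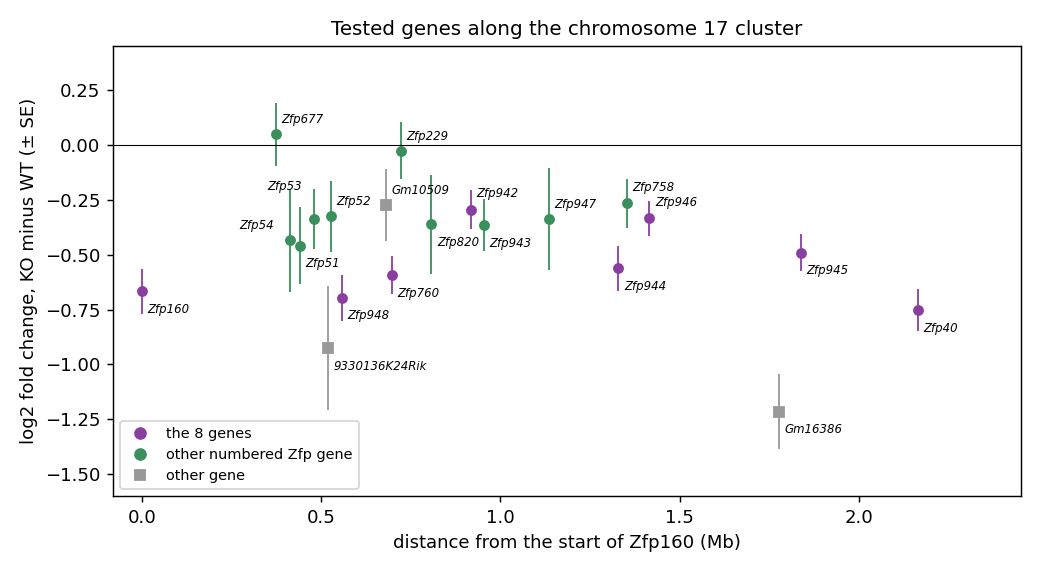
Log2 fold change (KO minus WT, y axis, ± SE) of every tested gene between Zfp160 and Zfp40, by distance from the start of Zfp160 in Mb (x axis), for the 8 genes, the 10 other numbered Zfp genes and 3 other genes. Zfp677 alone lies above 0, and Gm16386 is lowest at −1.22.

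Decreases also appeared in other clusters. Grouping members on a chromosome whose starts lay within 1 Mb of the next gave 19 clusters of at least 4 members. For comparison, 21.0% of all members and 10.2% of all tested genes were lower. A cluster on chromosome 8 (chr8:71882019-71993792) had 3 of 4 members lower and a median log2 fold change of −0.43, and a second (chr8:69209038-69791178) 3 of 5 and −0.33. On chromosome 7 (chr7:12415153-12985714) 5 of 7 were lower with a median of −0.33. The chromosome 13 cluster (chr13:67038596-67827002) had 3 of 12 lower and a median of −0.25. The cluster with the chromosome 17 group had 8 of 17 lower, all of them the group, and a median of −0.34.

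Further clusters lay between these values and 0. On chromosome 9 from 19.6 to 20.6 Mb, 3 of 6 members were lower, with a median of −0.23. On chromosome 7 from 41.6 to 43.6 Mb, 2 of 5 were lower, with a median of −0.20. On chromosome 17 from 32.8 to 33.6 Mb, 2 of 11 were lower, with a median of −0.16. Some clusters stayed near 0. The chromosome 6 cluster of 10 members from 47.8 to 48.6 Mb had none lower and a median of −0.05, and that of 12 members on chromosome 7 from 24.1 to 25.2 Mb had none lower and a median of −0.06. Of 9 members on chromosome 7 from 127.2 to 127.9 Mb, 1 was lower and the median was 0.06. Decreases of KRAB members were found both inside and outside clusters. Of these members, 31 of 113 in clusters of 4 or more were lower, with a median of −0.19, and 11 of 48 elsewhere, with a median of −0.18. Among members with no KRAB match, 5 of 34 in clusters and 12 of 88 elsewhere were lower. The shares lower were thus 27.4% and 22.9% with KRAB and 14.7% and 13.6% without, where 10.2% of all tested genes were lower.

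**Figure D4:**
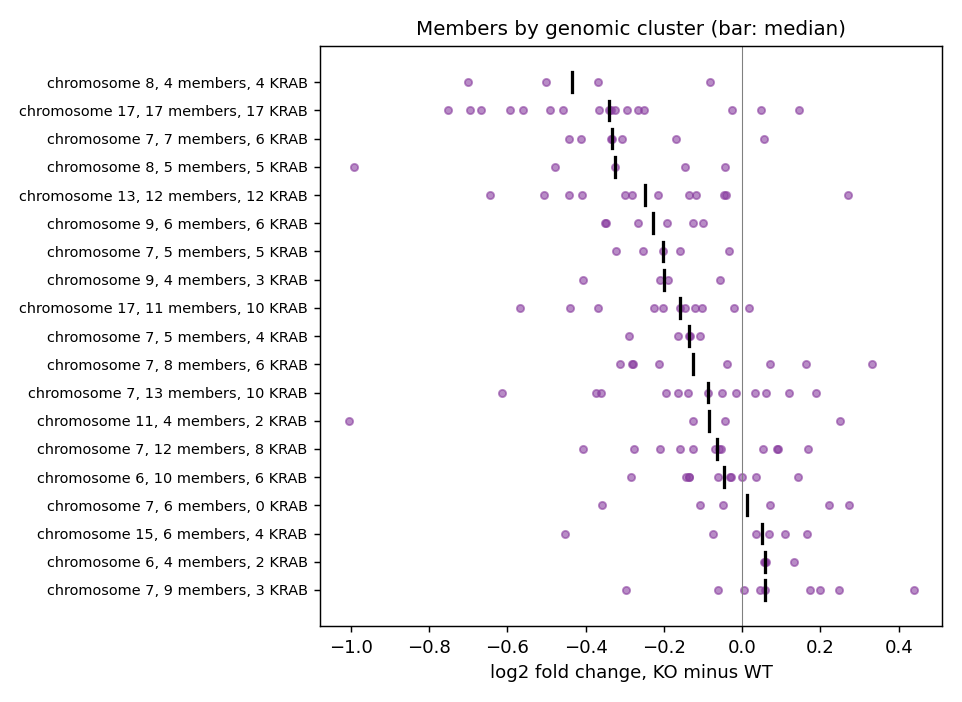
Log2 fold change (KO minus WT, x axis) of each member (points) in the 19 genomic clusters of at least 4 members (rows, with the number that have KRAB), with a bar at the median. Rows run from a median of −0.43 on chromosome 8 to 0.06 on chromosome 7.

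Outside the chromosome 17 group, the largest decreases were in the KRAB genes Zfp57 and Zfp950. Zfp57, whose protein keeps DNA methylation at imprinted control regions, measured 10.9, 11.4 and 11.8 CPM in WT and 4.80, 4.997 and 5.11 CPM in KO, a difference of −1.18 on the log2 scale (SE 0.10, adjusted p = 8.3e-05). It lies on chromosome 17 at 37001163 to 37010635, outside the cluster above, and has 3 fingers. The KO libraries sat tightly below the WT libraries. At this gene 799 reads were counted on the opposite strand, 28.7% of the reads on both strands in WT and 44.1% in KO.

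Zfp950 measured 34.8, 34.0 and 41.4 CPM in WT and 16.1, 15.2 and 17.9 CPM in KO (log2 fold change −1.14, SE 0.10, adjusted p = 7.7e-05). In CPM it was the most abundant of the members that fell 2-fold or more. Zfp692, which has no KRAB match, measured 10.7, 11.2 and 8.37 CPM in WT and 5.32, 4.49 and 5.76 CPM in KO (−1.01, adjusted p = 0.00111). Zfp963 measured 6.07, 5.26 and 5.73 CPM in WT and 2.78, 3.18 and 2.60 CPM in KO (−0.99, adjusted p = 0.00139). None of the 3 overlapped between the genotypes. Zfp963 shares 40.4% of its 50-base words with Gm20422, a gene that overlaps it on the same strand, so its count is uncertain.

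A further 8 genes met the same rule, each with every KO library below every WT library. Zfp277 was 11.8 ± 1.13 CPM in WT and 6.61 ± 0.271 in KO (log2 fold change −0.81). The X-linked Zfp182 was 19.1 ± 2.97 and 10.8 ± 0.317 CPM (−0.78). Of 6 X-linked members it was the only one lower, and its value in WT replicate 1, the library with Xist reads, was 16.8 CPM, the lowest of the WT libraries. The KRAB genes Zfp619, Zfp961, Zfp458 and Zfp14 fell by 0.70, 0.70, 0.64 and 0.61 on the log2 scale. Zfp276, with no KRAB match, was 29.1 ± 4.49 CPM in WT and 19.6 ± 1.24 in KO (−0.61). Zfp939, annotated as a transcribed pseudogene, was 8.65 ± 1.55 and 5.56 ± 0.270 CPM (−0.58, adjusted p = 0.0160), and did not pass without WT replicate 2 or KO replicate 1, 2 or 3, where the adjusted p was 0.0519 to 0.0709.

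**Figure D5:**
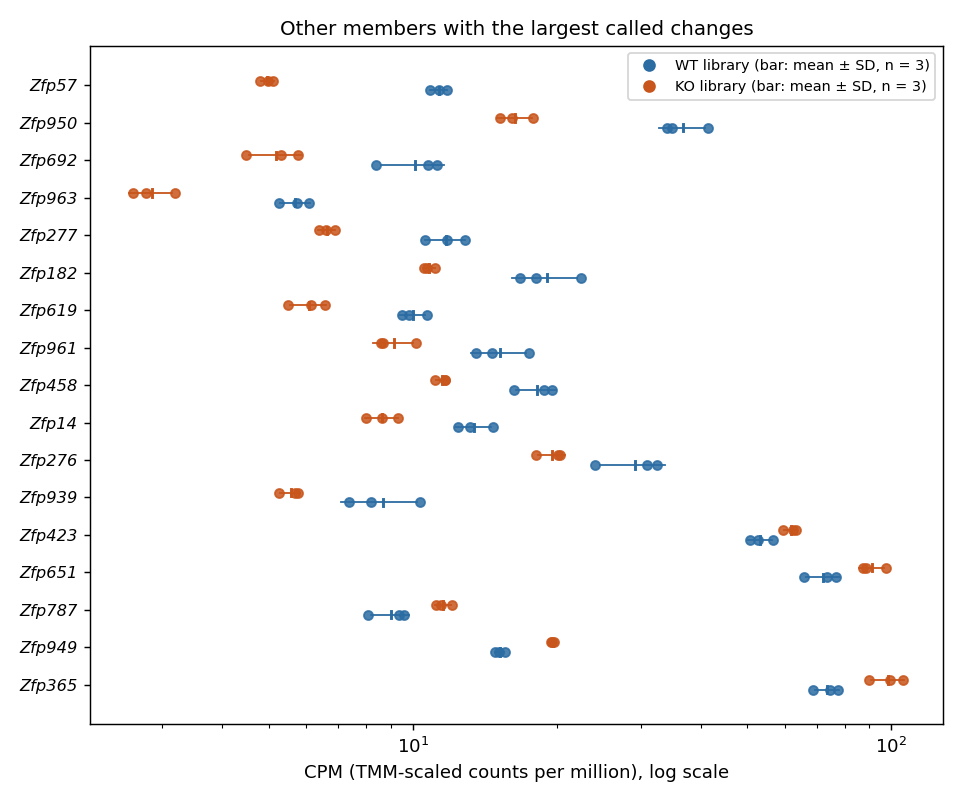
Level in CPM (x axis, log scale) of 12 lower and 5 higher members outside the chromosome 17 group in each WT and KO library (points), with bars for the mean ± SD of 3 libraries. The genotypes do not overlap in any of the 17 genes, since that was part of the rule that chose them.

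Of the 72 members with the highest mean CPM, 15 were lower (20.8%) and 3 higher. This share lower was near the 21.0% of all members, where 10.2% of all tested genes were lower and 6.43% higher. The leading 4 were Zfp106, Zfp644, Zfp871 and Zfp638, of which 1 was lower. Zfp638, an RNA- and DNA-binding nuclear protein, measured 167.9, 172.0 and 171.7 CPM in WT and 123.5, 125.0 and 125.8 CPM in KO (log2 fold change −0.45, SE 0.06, adjusted p = 0.000711). It was lower in all 3 KO libraries, with a spread of a few CPM in each genotype. Zfp106, an RNA-binding protein needed by motor neurons, was 225.6 ± 9.26 CPM in WT and 247.5 ± 11.7 in KO (0.13, adjusted p = 0.177). Zfp644 (165.1 ± 12.1 and 168.1 ± 3.45 CPM, adjusted p = 0.854) and Zfp871 (167.2 ± 6.97 and 153.9 ± 6.85 CPM, adjusted p = 0.213) did not pass either. Per kb of exon, levels were 27.3 CPM for Zfp706, 22.7 for Zfp106, 19.8 for Zfp207 and 16.5 for Zfp365, the highest of the members.

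Other members with a known role were looked up after their values had been seen. Zfp445, the KRAB protein that acts with Zfp57 at imprinted regions, measured 139.3, 140.8 and 135.5 CPM in WT and 101.4, 102.0 and 101.3 CPM in KO (log2 fold change −0.45, adjusted p = 0.000802). Zfp207, a spindle assembly factor that binds microtubules, was 154.1 ± 12.3 CPM in WT and 108.9 ± 2.62 in KO (−0.50, adjusted p = 0.00139). Zfp292 was 102.7 ± 10.2 and 70.6 ± 3.11 CPM (−0.53, adjusted p = 0.00175). All 3 were lower in KO with no overlap. Zfp809, which silences retroviral sequences, was 13.1 ± 0.966 CPM in WT and 11.4 ± 0.769 in KO (−0.19, adjusted p = 0.210). Zfp568, a KRAB repressor of a placental Igf2 transcript, was 9.90 ± 2.44 and 8.87 ± 0.655 CPM (−0.09, adjusted p = 0.738).

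The 5 members that were higher in KO changed by less than the leading decreases. Zfp365, which binds the scaffold protein Disc1 and has no classical finger here, measured 77.4, 74.6 and 68.8 CPM in WT and 90.1, 105.7 and 99.7 CPM in KO (log2 fold change 0.41, SE 0.08, adjusted p = 0.00599). It lies on chromosome 10 (chr10:67886103-67912662), 4.79 Mb from the start of Atoh7, and the other 3 members on this chromosome did not pass. Zfp949 was the only KRAB member that was higher, with 14.9, 15.6 and 15.2 CPM in WT and 19.5, 19.8 and 19.6 CPM in KO (0.37, adjusted p = 0.0104). The WT and the KO libraries of Zfp949 each lay within 1 CPM.

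Zfp651 (72.0 ± 5.71 CPM in WT and 91.2 ± 5.61 in KO, log2 fold change 0.33, adjusted p = 0.0160) and Zfp787 (9.01 ± 0.831 and 11.6 ± 0.444 CPM, 0.33, adjusted p = 0.0425) have no KRAB match. Zfp423, needed for cerebellar development, measured 50.7, 52.6 and 56.7 CPM in WT and 62.2, 63.1 and 59.6 CPM in KO (0.22, adjusted p = 0.0473). Its relative Zfp521 did not pass, at 114.3 ± 12.2 CPM in WT and 103.0 ± 8.88 in KO (−0.15, adjusted p = 0.296). Zfp423 and Zfp787 did not pass when any library other than WT replicate 3 was left out, with adjusted p of 0.101 to 0.149 and 0.0842 to 0.145. Zfp651 did not pass without WT replicate 2 (0.0508) or KO replicate 3 (0.0822), nor Zfp949 without KO replicate 3 (0.0509). Zfp365 passed in each of these fits.

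Partners of KRAB proteins were read from a list of 37 genes of the silencing pathway, 36 of them measured. Of these, 10 were lower in KO, 2 higher and 24 did not pass, at a median of −0.09 on the log2 scale, where 16.7% of all tested genes were called. Trim28, the corepressor that KRAB binds, measured 93.0, 96.0 and 82.6 CPM in WT and 96.5, 93.8 and 90.7 CPM in KO, which overlapped (0.04, adjusted p = 0.723). Setdb1, the methyltransferase it recruits, measured 47.5, 48.9 and 45.1 CPM in WT and 37.4, 38.9 and 37.0 CPM in KO (−0.33, adjusted p = 0.00816). Fam208a, the core of the HUSH silencing complex, was 101.4 ± 4.57 CPM in WT and 72.5 ± 3.25 in KO (−0.48, adjusted p = 0.00116). Each WT library of Setdb1 and Fam208a lay above each KO library.

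The chromatin remodellers Smarcad1 (40.4 ± 0.956 CPM in WT and 31.3 ± 0.761 in KO, −0.37) and Atrx (245.2 ± 45.3 and 162.7 ± 8.21 CPM, −0.58) were lower too, Atrx with a wide WT spread. Setdb1 and Atrx did not pass without KO replicate 3 (adjusted p = 0.0553 and 0.0540). Also lower were Morc3, Morc2a, Hdac1, Mta2, Uhrf1 and Dnmt1, while the NuRD subunits Mbd3 (log2 fold change 0.28) and Chd3 (0.24) were higher. The count of changed partners was 5, 4, 5 and 2 of 36 without WT replicate 2 or KO replicate 1, 2 or 3, 10 without WT replicate 1 and 13 without WT replicate 3. In the first 4 of these fits 8.46%, 8.22%, 7.22% and 6.64% of all tested genes were called. The 2 and 4 partners called without KO replicate 3 or 1 were thus near the background. Without WT replicate 1 or WT replicate 3, 15.0% and 23.4% of all tested genes were called.

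Several measured properties of the libraries differed between the genotypes in the mean. None of the shares of reads below separated every WT library from every KO library. Members took 0.919%, 0.930% and 0.805% of gene reads other than Rn45s in the WT libraries, by replicate, against 0.826%, 0.823% and 0.840% in the KO libraries. On this unscaled share WT replicate 3 lay below the KO libraries, while after TMM scaling its sums lay above them. Reads on the strand opposite a member were 1.11% ± 0.0894 of the reads on both strands in WT and 0.992% ± 0.0315 in KO. This share was 1.01% in WT replicate 3 and 1.03% in KO replicate 1. Of the 45 members with at least 60 opposite-strand reads, these reads were lower in every KO than in every WT library for 16 and higher for none. Of all 4401 tested genes with as many opposite-strand reads, 24.0% were lower and 5.50% higher by the same rule. Over all genes the opposite-strand share was 1.601% ± 0.714 in WT, with 0.777% in WT replicate 3, and 1.803% ± 0.0444 in KO. Of all members, 53 overlap a gene on the same strand and 95 one on the opposite strand, and 30 of 283 share more than 10% of their 50-base words with another gene. The part of these properties in the decreases was not tested.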

How the data were processed

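Each library has 1 deposited table of counts, which the authors did not normalize, of reads assigned to each gene symbol. Reads were trimmed with Trimmomatic and aligned with STAR to mm10, per the submitters' processing notes; versions, gene annotation and library kit: not given in the sources used here. Of the strand columns the one with more reads was taken. Reads that fall in an intron only, or align to several places, do not enter such gene counts, which makes genes with near copies uncertain. Summary lines stayed out of library sizes.

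Genotypes were compared with edgeR's quasi-likelihood test (edgeR 4.0.16, R 4.3.3) after filterByExpr and TMM scaling. Benjamini-Hochberg adjusted p-values cover every gene tested, and the threshold was 0.05. CPM used the TMM-scaled library sizes, and standard errors (SE), which are approximate, come from the log2 fold change and the F statistic. The fit was tested on simulated data. Groups and replicate numbers came from the sample titles. The p-values measure the spread between these replicates.

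Positions, overlaps, exon lengths and proteins came from GENCODE on GRCm38, the assembly that mm10 denotes, matched for 285 of 286 members. Fingers were counted as a pattern of spaced cysteines and histidines in the longest protein. KRAB was searched in all isoforms with a profile built from these proteins (pyhmmer 0.12.3, E-value under 0.001).

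Named were, beside the chromosome 17 group, other called members whose genotypes did not overlap (up to 12 lower and 8 higher, by fold change), the 4 most abundant members, those at the read minimum, up to 4 other genes of the chromosome 17 window by p, and Trim28, Setdb1 and 4 further partners by p; others were chosen after their values were seen. The members, lists and rules were chosen with earlier results of these data known.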

Additional observations from a re-analysis of the deposited data

How the results depend on the processing

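Counts of calls depended on the libraries in the fit. All 65 called members kept their sign under the 12 alternative fits. These fits reuse the libraries that chose the 65, so the kept sign is not independent evidence. Leaving out 1 library at a time gave 31 to 84 changed members, 1 to 9 higher, 30 to 75 lower and 2 to 13 changed partner genes. Across these fits 6.64% to 23.4% of all tested genes were called. In each of these fits 29 members passed, 28 of them lower and 6 of them in the chromosome 17 group. The same count over all tested genes was not made, so the 29 have no background beside them. Same-numbered WT and KO libraries did not deviate together (correlations −0.18, −0.14 and −0.10), so the numbers were not taken as pairs. With the replicate number as a block, 32 members changed, 1 higher and 31 lower (1.62% and 5.29% of all tested genes), and 4 partner genes. The limma-voom fit with sample quality weights called 9 members higher and 83 lower, against 11.1% and 15.3% of all tested genes. DESeq2 called 56 lower and 4 higher, against 9.94% and 7.65%. A minimum of 300 or 1200 reads gave 306 members with 67 called and 238 with 63. Genes near 0 changed sign: Zfp644 gave −0.0156 with limma-voom and −0.0254 to 0.0733 with 1 library left out, and Trim28 −0.0030 and −0.0094 to 0.0867, in both genes below 0 without WT replicate 3. The cause of these changes was not tested. WT replicate 3, with 6015125 reads on genes other than Rn45s, limits the precision of WT values for members with few reads.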
